A study of Mus musculus with 8 samples.

Results

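The bile acid synthesis enzymes and the regulators that hold them back were examined as a set of 10 genes out of the 22180 genes measured in liver RNA. The set held 5 enzymes (Cyp7a1, Cyp8b1, Cyp27a1, Cyp7b1 and Hsd3b7) and 5 regulators (Nr0b2, Nr1h4, Nr5a2, Fgfr4 and Klb). The members were chosen by name, and each took the transcript cluster (the array's unit of 1 value) annotated to that gene alone, with the highest mean over all arrays where there were several. Each of the 10 had a single such cluster, so this last step made no choice. Cyp7a1 had been singled out on these same arrays for the size of its difference between the groups, and that difference is therefore given as a description with no test.

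The classical pathway of bile acid synthesis begins with Cyp7a1, the rate-limiting cholesterol 7-alpha-hydroxylase, and Cyp8b1 sets how much cholic acid it makes. Cyp27a1 and Cyp7b1 form the alternative pathway, and Hsd3b7 acts in both. Synthesis is under negative feedback: bile acids activate FXR (Nr1h4), which induces SHP (Nr0b2), and SHP represses the activity of LRH-1 (Nr5a2) on Cyp7a1 and Cyp8b1, while intestinal FGF15 signals to the hepatocyte through Fgfr4 and its co-receptor beta-Klotho (Klb). Nr5a2 is thus itself an activator that the repressor acts on, rather than a repressor.

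The arrays held livers of male C57BL/6J offspring, 4 HFD PN and 4 Ctrl PN, taken non-fasted at 24 weeks. HFD PN offspring were nursed by dams on a 60% high-fat diet (D12492) and Ctrl PN offspring by dams on standard chow, for which the labels and the paper name different products. From weaning both groups ate a normal diet. Each liver was hybridised to 1 array, and values are log2 expression made with RMA by the authors. Neither the litter of each mouse nor the hour of liver collection is given in the sources used here, so p-values measure the spread between these livers only.

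The array of HFD PN replicate 1 and, less so, that of Ctrl PN replicate 3 stood apart from the rest. The correlation with every other array was 0.945 to 0.968 for the first and 0.968 to 0.979 for the second, against 0.986 to 0.991 among the other 6. Genes of middle level (3 to 6 on the log2 scale) had a median of 0.75 below their own group in HFD PN replicate 1 and of 0.35 below in Ctrl PN replicate 3. Where a result rests on these arrays, it is given with and without them. In bulk RNA, fewer cells of a type and less RNA per cell cannot be told apart.

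Because LRH-1 is the member through which SHP acts on DNA, promoter windows of the members were searched for the short motif it binds. RefSeq (GRCm38.p6) windows from 250 bases before to 50 after the start site were given for 8 of the 10 members (9 windows), with Cyp7a1 and Cyp7b1 among the genes not covered. Both strands were searched for the NR5A motif (CAAGGNCA), the E box (CACGTG) bound by CLOCK and BMAL1, and the D box (TTATGNAA) bound by DBP, which 6.71%, 7.15% and 3.38% of all 32851 windows held. The motifs were chosen after the members' values were known. The 2 members whose windows held an NR5A motif were Cyp8b1 (chr9:121916256-121916555, minus strand) and Nr0b2 (chr4:133553126-133553425, plus strand), and these windows are shown for that reason, with motif matches in capitals.
Cyp8b1: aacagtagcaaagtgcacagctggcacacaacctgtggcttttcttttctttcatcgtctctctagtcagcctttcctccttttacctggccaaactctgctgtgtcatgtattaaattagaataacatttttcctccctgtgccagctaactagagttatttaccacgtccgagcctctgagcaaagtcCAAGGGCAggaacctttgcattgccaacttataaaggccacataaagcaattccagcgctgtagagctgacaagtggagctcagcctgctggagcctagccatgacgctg
Nr0b2: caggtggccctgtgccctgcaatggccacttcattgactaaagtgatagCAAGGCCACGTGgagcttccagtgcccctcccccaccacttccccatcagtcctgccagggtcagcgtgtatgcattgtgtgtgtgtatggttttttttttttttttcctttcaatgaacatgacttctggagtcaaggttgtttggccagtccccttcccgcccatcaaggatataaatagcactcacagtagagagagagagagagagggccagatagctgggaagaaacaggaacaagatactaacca
The match in Cyp8b1 lay at -60 to -53 from the start site. In Nr0b2 the NR5A motif lay at -201 to -194 and ran into an E box at -195 to -190, so that the capitals mark both. The other match among the members was to the D box pattern as searched, the letters TTATGAAA in Cyp27a1 at -60 to -53. A match is a string of letters, and no binding was measured.

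Cyp7a1 was lower in HFD PN livers on average, and its level varied widely within both groups. In the Ctrl PN livers of replicates 1 to 4 Cyp7a1 stood at 8.20, 7.68, 5.84 and 7.27, and in the HFD PN livers at 6.06, 7.22, 5.91 and 6.32. The lowest liver of all was Ctrl PN replicate 3, and HFD PN replicate 2 lay close to Ctrl PN replicate 4, so the groups overlapped. Across groups, 4 livers lay between 5.84 and 6.32 and 4 between 7.22 and 8.20, the second set holding 3 of the 4 Ctrl PN livers. The group means were 7.25 ± 1.01 in Ctrl PN and 6.38 ± 0.59 in HFD PN (SD, n = 4 each). The difference, HFD PN minus Ctrl PN, was -0.87 with a standard error of 0.49, the 6th lowest of the 22180 genes. It was -1.23 without the 2 arrays that stood apart, and from -1.34 (without Ctrl PN replicate 3) to -0.55 (without Ctrl PN replicate 1) with 1 liver left out. The spread was wide too: the standard deviation within groups was 0.83, and 0.947% of genes had a larger one.

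Cyp8b1, the sterol 12-alpha-hydroxylase, stood at 7.12, 7.23, 6.34 and 7.12 in Ctrl PN and at 6.0, 6.82, 6.50 and 7.05 in HFD PN. Here 3 Ctrl PN livers were above every HFD PN liver, and Ctrl PN replicate 3 was below 3 of them. Means were 6.95 ± 0.41 and 6.59 ± 0.45 (SD, n = 4 each), a difference of -0.36 (95% interval -0.96 to 0.24) that did not pass limma's test (unadjusted p = 0.207, adjusted p = 0.99988). The difference was -0.16 without HFD PN replicate 1, -0.56 without Ctrl PN replicate 3 and -0.37 without both arrays that stood apart.

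Cyp7b1, the oxysterol 7-alpha-hydroxylase, measured 8.93, 8.79, 8.20 and 8.12 in Ctrl PN and 8.34, 9.02, 8.02 and 7.77 in HFD PN. The highest value belonged to HFD PN replicate 2 and the lowest to HFD PN replicate 4, so that HFD PN spanned the whole range of Ctrl PN. The difference was -0.22 (95% interval -0.88 to 0.44, limma unadjusted p = 0.462). Leaving out HFD PN replicate 2 gave -0.47 and leaving out HFD PN replicate 4 gave -0.05.

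Cyp27a1, the mitochondrial sterol 27-hydroxylase, measured 7.77, 8.0, 7.33 and 7.66 in Ctrl PN and 6.39, 7.90, 7.99 and 7.94 in HFD PN. HFD PN replicate 1 was far below the other 7 livers, and the other 3 HFD PN livers were above 3 of the Ctrl PN livers. The difference of -0.13 (95% interval -0.93 to 0.66, limma unadjusted p = 0.71) became 0.25 without that array.

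Hsd3b7, the steroid dehydrogenase that follows the 7-alpha-hydroxylases, showed the same layout, with 6.22, 6.03, 5.94 and 5.87 in Ctrl PN and 5.28, 6.15, 6.16 and 6.31 in HFD PN. Its difference was -0.04 (95% interval -0.53 to 0.45, limma unadjusted p = 0.855) and turned to 0.19 without HFD PN replicate 1.

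**Figure D1:**
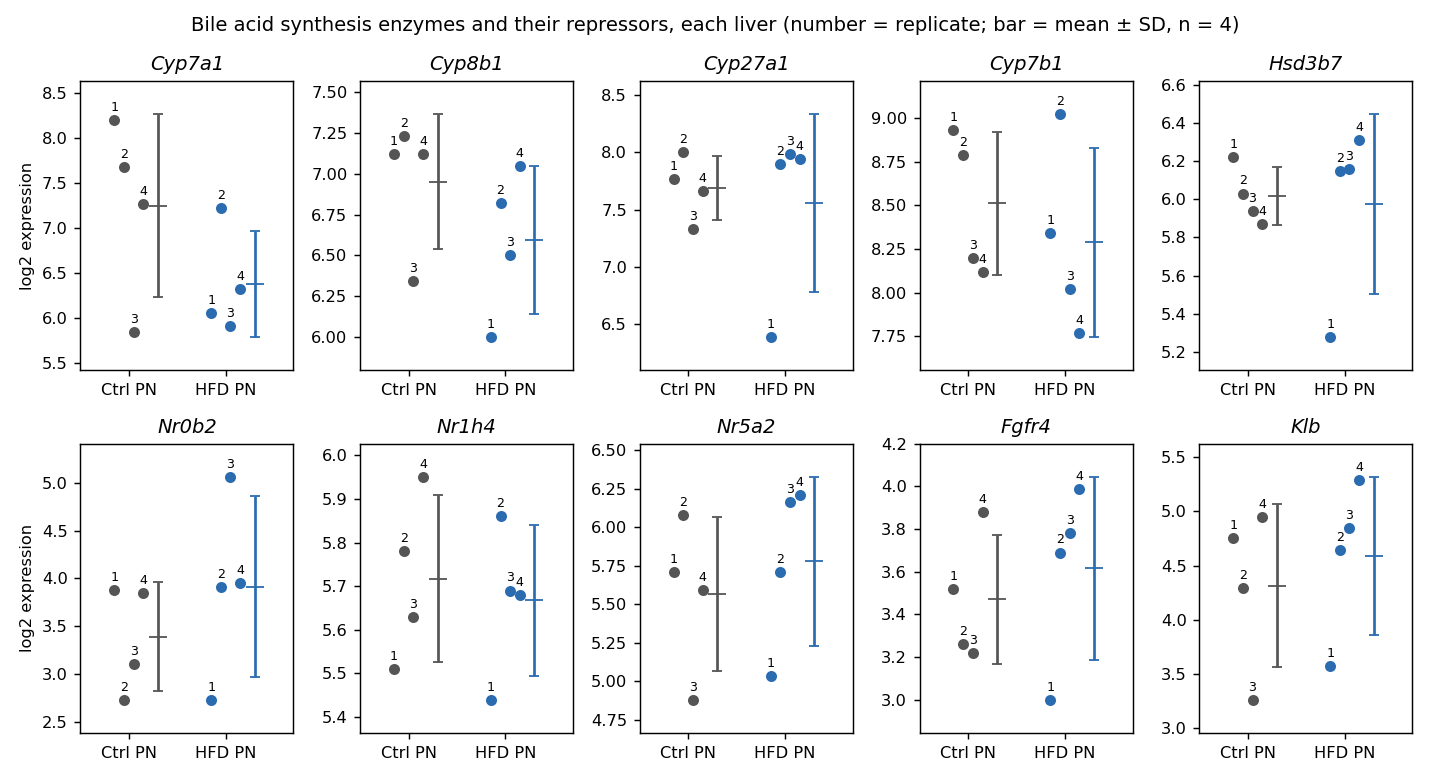
Log2 expression (vertical axes) of the 10 members in each of the 4 Ctrl PN (grey) and 4 HFD PN (blue) livers, with replicate numbers beside the points and bars for the mean ± SD. The groups overlap in every panel, and HFD PN replicate 1 is the lowest liver in 5 of them.

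Among the regulators, Nr0b2 had the highest mean difference. This gene encodes SHP, a nuclear receptor without a DNA-binding domain that represses LRH-1. Nr0b2 stood at 3.88, 2.73, 3.10 and 3.85 in Ctrl PN and at 2.73, 3.91, 5.06 and 3.95 in HFD PN. Of the HFD PN livers, 3 were above every Ctrl PN liver, of which 2 lay within 0.1 of the highest Ctrl PN value, and HFD PN replicate 1 was level with the lowest Ctrl PN liver. The difference was 0.53 (SE 0.46, 95% interval -0.53 to 1.58), the 116th highest of all genes, and it did not pass limma's test (unadjusted p = 0.287) or the exact two-sided permutation test (p = 0.314, n = 4 each). It ranged from 0.14 without HFD PN replicate 3 to 0.92 without HFD PN replicate 1, and was 0.82 without both arrays that stood apart. Its spread within groups (SD 0.78) was exceeded by 1.37% of genes.

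Nr1h4, which encodes the bile acid receptor FXR, was the steadiest member. Its values were 5.51, 5.78, 5.63 and 5.95 in Ctrl PN and 5.44, 5.86, 5.69 and 5.68 in HFD PN. The whole range over 8 livers was 0.51, against 2.36 for Cyp7a1 and 2.33 for Nr0b2, and 57.7% of genes had a larger spread within groups. The 95% interval of its difference, -0.34 to 0.24, was the narrowest of the set (limma unadjusted p = 0.711).

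Nr5a2, which encodes LRH-1, measured 5.71, 6.08, 4.88 and 5.59 in Ctrl PN and 5.03, 5.71, 6.16 and 6.21 in HFD PN. The 2 lowest livers were Ctrl PN replicate 3 and HFD PN replicate 1, the arrays that stood apart. The difference was 0.22 (95% interval -0.50 to 0.93, limma unadjusted p = 0.512), and it was -0.01 without the first and 0.47 without the second.

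Fgfr4, the hepatocyte receptor for FGF15, measured 3.52, 3.26, 3.22 and 3.88 in Ctrl PN and 3.0, 3.69, 3.78 and 3.99 in HFD PN. Its co-receptor gene Klb measured 4.75, 4.29, 3.26 and 4.95 in Ctrl PN and 3.57, 4.64, 4.85 and 5.29 in HFD PN. Both genes were highest in HFD PN replicate 4, then in Ctrl PN replicate 4 and HFD PN replicate 3, and both had Ctrl PN replicate 3 and HFD PN replicate 1 as their 2 lowest livers. The differences were 0.15 for Fgfr4 (95% interval -0.38 to 0.67, limma unadjusted p = 0.542), from 0.02 without HFD PN replicate 4 to 0.35 without HFD PN replicate 1, and 0.28 for Klb (95% interval -0.72 to 1.28, limma unadjusted p = 0.543).

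Over the set, the mean was lower in HFD PN for 5 of 5 enzymes and higher for 4 of 5 regulators. The enzyme count includes Cyp7a1, which had been singled out on these arrays for this difference. Cyp27a1 and Hsd3b7 changed sign without the arrays that stood apart. Nr5a2 (-0.01) and Klb (-0.07) did so without Ctrl PN replicate 3 alone. Of all genes, 55.9% had a lower mean in HFD PN. The median difference of the 10 members was -0.05, against -0.02 over all genes. By limma, 0 of the 9 members tested passed an unadjusted p of 0.01, where 0.555% of all genes did, and 0 passed 0.05, where 3.49% of all genes did. Both forms of the methods' t-test also passed 0 members at 0.01 and at 0.05. The count at 0.05 depended on the livers kept. Cyp8b1 passed it without both arrays that stood apart (-0.37, limma unadjusted p = 0.0296, adjusted p = 0.554), where 8.38% of all genes did, and without Ctrl PN replicate 3 (-0.56, limma unadjusted p = 0.0427, adjusted p = 1.0), where 2.65% did. Nr0b2 passed it without HFD PN replicate 1 (0.92, limma unadjusted p = 0.0298, adjusted p = 0.503), where 9.39% of all genes did. The groups were free of overlap for 0 of 10 members and for 2.82% of all genes. The smallest p that the exact permutation test of 4 against 4 can give is 0.0286, and among the 9 members it ranged from 0.257 (Cyp8b1) to 0.943 (Hsd3b7). These p-values do not show that the groups were alike: only for Nr1h4 did the interval stay within 0.34 on either side of 0.

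**Figure D2:**
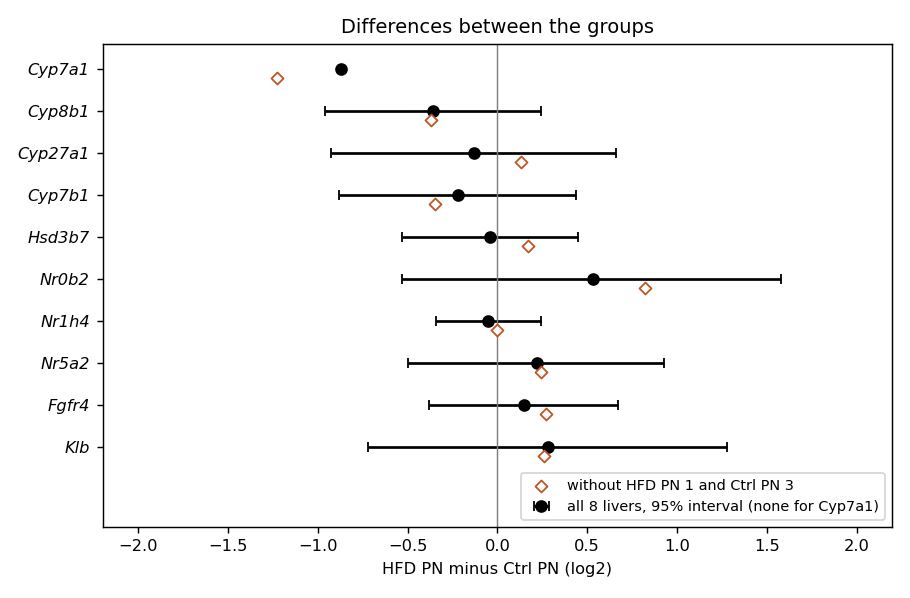
Log2 difference of the group means (horizontal axis, positive where HFD PN was higher) for each member with all 8 livers (black, with 95% intervals except for Cyp7a1, which is described only) and without HFD PN replicate 1 and Ctrl PN replicate 3 (open diamonds). Every interval drawn includes 0, and Cyp27a1 and Hsd3b7 move from -0.13 and -0.04 to 0.13 and 0.17.

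The arrays that stood apart gave low values for many members, as they did for genes of middle level at large (medians of 0.75 and 0.35 below their own groups). HFD PN replicate 1 was the lowest of all 8 livers for 5 members and the lowest of its group for 8. Ctrl PN replicate 3 was the lowest of all for 3 and the lowest of its group for 6. In 5 members these were the 2 lowest livers. The shares of all genes with these layouts were not computed, so the counts are not shown to be particular to the members. The part of these arrays in the members' low values was not tested.

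Cyp7a1 was then related to each other member liver by liver, in 9 relations over 8 livers, with two-sided permutation p-values adjusted over the 9. Cyp8b1 came closest. The livers low in Cyp7a1 were mostly low in Cyp8b1, with Pearson's r = 0.78 (permutation p = 0.0282, adjusted p = 0.254) and Spearman's rho = 0.83 (permutation p = 0.0154, adjusted p = 0.138). Its r was 0.72 (permutation p = 0.111) without the arrays that stood apart, which were also the 2 livers farthest from the Cyp8b1 median, 0.72 with the group means taken off, and 0.73 to 0.88 with 1 liver left out. HFD PN replicate 4 departed from the order, with Cyp8b1 at 7.05 and Cyp7a1 at 6.32.

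With Cyp7b1, the r of Cyp7a1 was 0.73 (permutation p = 0.057, adjusted p = 0.256) and rho was 0.50 (permutation p = 0.216, adjusted p = 0.703). It was 0.57 without the 2 livers farthest from the Cyp7b1 median and 0.79 without the arrays that stood apart. Cyp7a1 had its 4 low livers among the 5 lowest of Cyp7b1, and Ctrl PN replicate 4 was the liver high in the first (7.27) and low in the second (8.12).

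With Nr0b2, the gene of the repressor, r was -0.10 (permutation p = 0.82, adjusted p = 0.82) and rho -0.19 (permutation p = 0.665, adjusted p = 0.703). The relation had no stable sign. It was 0.68 without the 2 livers farthest from the Nr0b2 median (Ctrl PN replicate 2 and HFD PN replicate 3), -0.68 (permutation p = 0.126) without the arrays that stood apart and 0.11 with the group means taken off. The liver highest in Nr0b2, HFD PN replicate 3, was low in Cyp7a1, and 2 of the 3 livers lowest in Nr0b2 were low in Cyp7a1 too, both of them the arrays that stood apart.

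For the other 6 members (Cyp27a1, Hsd3b7, Nr1h4, Nr5a2, Fgfr4 and Klb) r with Cyp7a1 lay between 0.10 and 0.41, with permutation p-values from 0.353 to 0.806. All 6 turned negative without the arrays that stood apart, to between -0.66 (Fgfr4) and -0.11 (Nr1h4). None of the 9 relations passed the adjusted p of 0.05. The 4 livers low in Cyp7a1 and the 4 high in it are too few for an r within each.

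**Figure D3:**
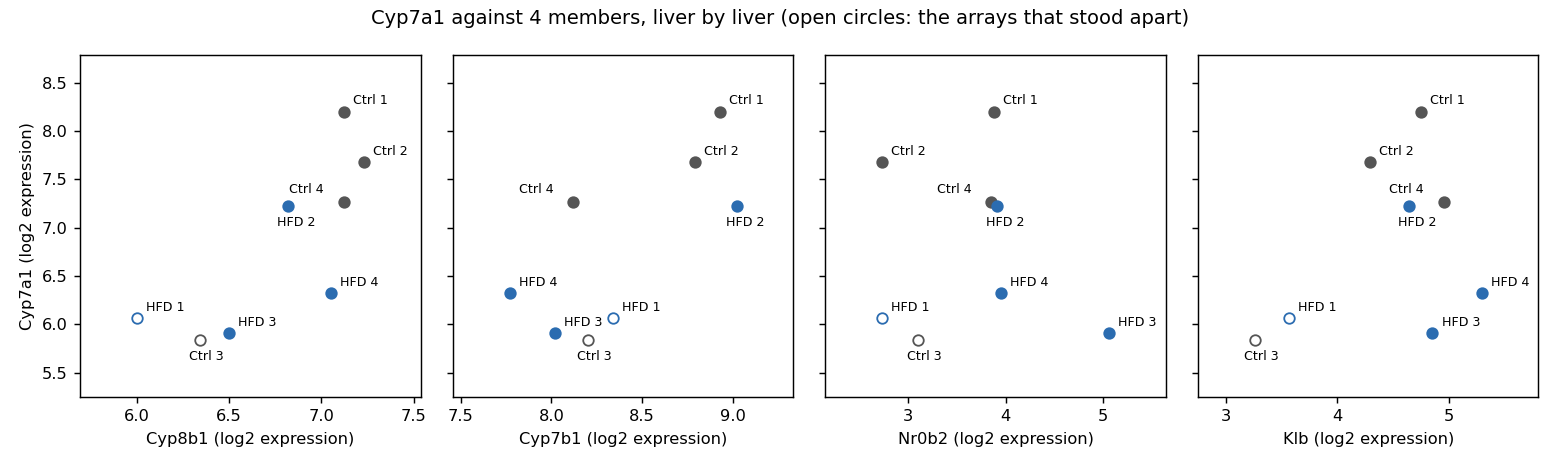
Log2 expression of Cyp7a1 (vertical axis) against that of Cyp8b1, Cyp7b1, Nr0b2 and Klb (horizontal axes) in each liver, Ctrl PN in grey and HFD PN in blue, with open circles for the arrays that stood apart. Cyp7a1 tends to be higher where Cyp8b1 and Cyp7b1 are higher (r = 0.78 and 0.73, adjusted permutation p = 0.254 and 0.256). It has no steady course with Nr0b2 or Klb (r = -0.10 and 0.37).

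**Figure D4:**
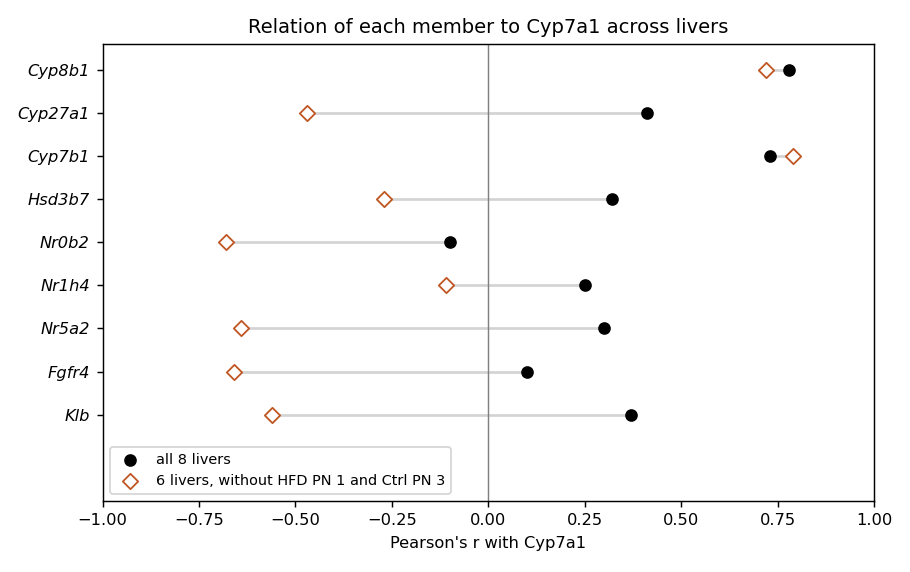
Pearson's r between Cyp7a1 and each other member (horizontal axis) over 8 livers (black) and over 6 livers, without HFD PN replicate 1 and Ctrl PN replicate 3 (open diamonds). The values for Cyp8b1 and Cyp7b1 stay above 0.7, and the other 7 are below 0 in the 6 livers.

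Over all 45 pairs of members, 40 had a positive r with 8 livers and 18 without the arrays that stood apart. With r, an unadjusted permutation p under 0.05 was reached by 11 pairs, and with rho by fewer. Cyp8b1 and Cyp27a1, for 1, had a permutation p of 0.0217 with r and 0.171 with rho. An adjusted p under 0.05 was reached by 0 pairs, with r as with rho. The shares over pairs of all genes were not computed, so these counts are not shown to be particular to the members. The pair with the lowest p was the FGF15 receptor and its co-receptor. Fgfr4 and Klb had r = 0.90 (permutation p = 0.00117, adjusted p = 0.0525) and rho = 0.95 (permutation p = 0.00114, adjusted p = 0.0513). The r of this pair was 0.93 without the arrays that stood apart, 0.90 with the group means taken off and 0.71 after quantile normalization. Cyp27a1 and Nr5a2 followed in the same manner, with r = 0.81 (permutation p = 0.00789, adjusted p = 0.146), rho = 0.88 (permutation p = 0.00724, adjusted p = 0.163) and 0.85 without the arrays that stood apart. Cyp27a1 and Hsd3b7 had the highest r of all, 0.93 (permutation p = 0.0111, adjusted p = 0.146), but 0.46 without those arrays, and so rested on them. Cyp8b1 and Nr0b2, the members whose windows held the NR5A motif, had r = 0.16 (permutation p = 0.699, adjusted p = 0.828) and rho = -0.12 over 8 livers. Without those arrays the r of Cyp8b1 with Nr0b2 was -0.87 (permutation p = 0.0208, unadjusted), so its sign depended on them, and the pair was noted after its value was seen.

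Cyp7a1 expression in mouse liver is known to follow the time of day, and clock genes were measured on the same arrays. In the clock list 15 of 16 genes were measured, and 0 passed limma's test at an unadjusted p of 0.01 or 0.05. The median difference was 0.13, with 11 genes higher and 4 lower in mean. Nfil3 (0.26), Bhlhe40 (0.53) and Clock (0.32) had the lowest p, with unadjusted limma values of 0.108, 0.118 and 0.131 and adjusted p = 0.99988 for each. Clock genes varied between livers within the groups. Dbp, an output gene of the clock, stood at 6.89, 6.98, 5.76 and 6.0 in Ctrl PN and at 5.55, 7.15, 5.59 and 6.02 in HFD PN. Arntl, which encodes the clock activator BMAL1, stood at 2.37, 2.17, 2.02 and 2.24 in Ctrl PN and at 1.88, 2.05, 3.45 and 3.63 in HFD PN. Dbp was thus high in Ctrl PN replicates 1 and 2 and HFD PN replicate 2, and Arntl was high in HFD PN replicates 3 and 4. These genes, named after their values were seen, fell into separate sets of livers, so an r over all livers mainly sets those livers against the rest.

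The 3 livers high in Dbp were also the 3 highest for Cyp7b1, at 8.79 to 9.02 against 7.77 to 8.34 in the other 5, and for 2 of the other 14 clock genes (Ciart and Per3). Of all genes, 1.86% (412) had these same 3 livers on top. For Cyp7a1, the same 3 livers held places 1, 2 and 4, and both livers high in Arntl were among the 4 low ones. Over the 15 clock genes, Dbp had the lowest adjusted permutation p of an r with Cyp7a1, 0.229 (r = 0.85, and 0.79 without the arrays that stood apart). For rho the lowest was 0.209 (Per3 and Nfil3). The relations depended on the livers kept. Without the arrays that stood apart, the r of Clock with Cyp7a1 went from -0.10 to -0.96 (permutation p = 0.00417, adjusted p = 0.0625) and that of Nr1d1, the gene of the clock repressor REV-ERB alpha, from 0.13 to -0.88 (permutation p = 0.0167, adjusted p = 0.125). With group means taken off, the r of Per3 was 0.87 (permutation p = 0.00521) and that of Dbp 0.86 (permutation p = 0.00694). The adjusted p was 0.052 for each. Clock, Nr1d1, Per3 and Dbp are given for the size of these values, and none passed the adjusted p of 0.05. The part of the hour of collection in Cyp7a1 and Cyp7b1 was not tested.

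**Figure D5:**
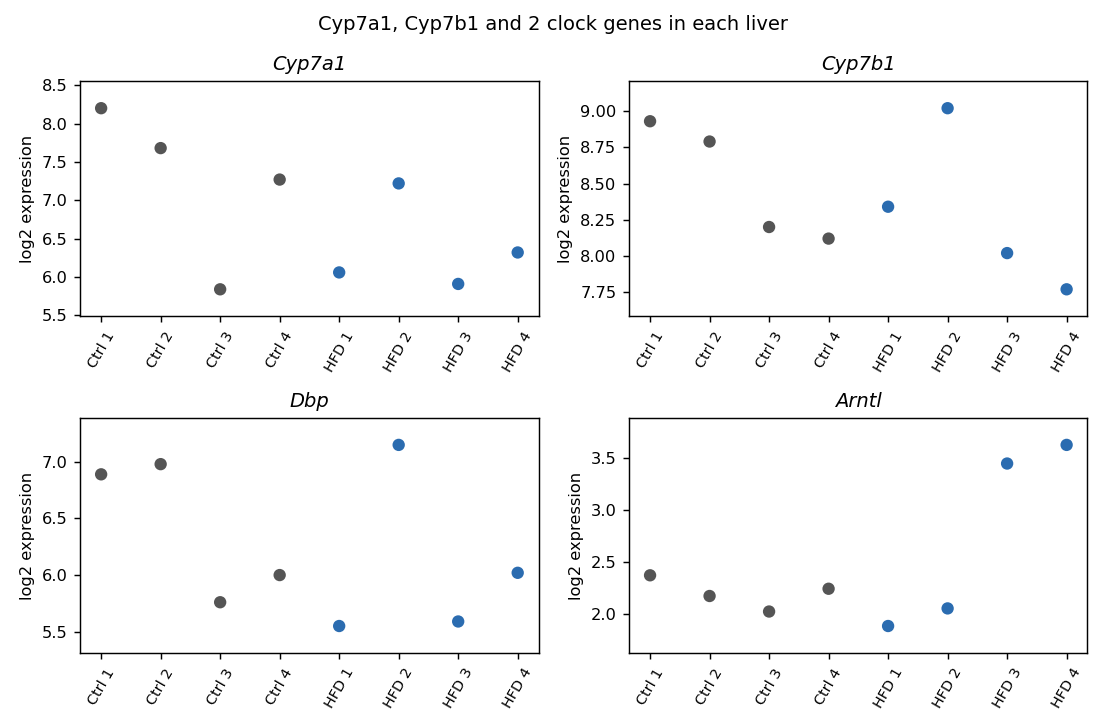
Log2 expression (vertical axes) of Cyp7a1, Cyp7b1, Dbp and Arntl in each of the 4 Ctrl PN (grey) and 4 HFD PN (blue) livers, along the horizontal axes. Ctrl PN replicates 1 and 2 and HFD PN replicate 2 lead for Cyp7b1 (8.79 to 9.02) and Dbp (6.89 to 7.15), and HFD PN replicates 3 and 4 lead for Arntl (3.45 and 3.63).

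Other genes of the pathway differed little in mean. Of the other bile acid synthesis enzymes 14 of 15 were measured, 7 higher and 7 lower in mean, with a median of -0.02 and 0 past an unadjusted p of 0.05 by limma. The lowest p-values were those of Ch25h (an oxysterol-forming hydroxylase, -0.17), Cyp2c70 (which makes muricholic acids in mice, -0.16) and Cyp46a1 (another oxysterol-forming hydroxylase, 0.10), with unadjusted limma values of 0.139, 0.426 and 0.499. Of other transcription factors that act on Cyp7a1 or on other bile acid synthesis genes, 12 of 14 were measured. Of these, 7 were higher and 5 lower in mean, with a median of 0.07 and 0 past 0.05. Ppargc1a (a coactivator, 0.29), Mafg (a repressor induced by FXR, 0.21) and Nr2f1 (0.10) came first, with unadjusted limma values of 0.228, 0.247 and 0.52. Ch25h and Nr2f1 had means of 1.42 and 1.32 over the 8 livers, under the median level of all clusters (1.54).

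Of other genes that FXR induces, 9 of 10 were measured, 6 higher and 3 lower, with a median of 0.06 and 0 past 0.05. Osgin1 had the lowest p, with 7.36, 6.79, 6.62 and 6.99 in Ctrl PN and 6.47, 8.0, 7.88 and 7.61 in HFD PN. HFD PN replicates 2 to 4 were above every Ctrl PN liver and HFD PN replicate 1 was not, as for Nr0b2. This layout was not particular to FXR targets: it was found in 5.13% of all genes, in 1 of the 9 FXR-induced genes, in 4 of the 15 clock genes and in 3 of the 12 other transcription factors. The difference of Osgin1 was 0.55 (SE 0.33, limma unadjusted p = 0.126). Slc51a (a bile acid exporter subunit, -0.14) and Apoc2 (0.14) followed, with unadjusted limma values of 0.24 and 0.396. The mean of Slc51a over the 8 livers, 1.35, was under the median level of all clusters (1.54). The adjusted p was 0.99988 for every gene named from these lists.

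By Pearson's r over the 8 livers, the genes most like Cyp7a1 among 3623 genes with a mean of at least 4 were Car1 (0.918), Mpp1 (0.882), Slc48a1 (0.874), Cuta (0.869) and Ifngr2 (0.862). The most opposed were Tstd3 (-0.908), Rab32 (-0.903), Aasdhppt (-0.881), Zfand4 (-0.872) and Hint3 (-0.834). Without the arrays that stood apart, the r of these 10 genes lay between 0.79 and 0.88 on the first side and between -0.90 and -0.74 on the second. These genes moved through a far smaller range than the 2.36 of Cyp7a1, from 0.36 (Tstd3) to 1.40 (Rab32). Among the members, Cyp8b1 ranked 27th and Cyp7b1 63rd in this order. The ranks are a description, with the extremes of many genes over few livers.

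Markers placed the samples as liver. The mean of the 9 hepatocyte markers measured was 10.41 to 10.80 in HFD PN and 10.20 to 10.77 in Ctrl PN, and that of the 6 cholangiocyte markers, 1.60 to 1.89 and 1.77 to 1.86, lay near the median level of all clusters (1.54). Of the intestine and pancreas markers 6 of 7 were lower in mean in HFD PN, 1 of them, Muc2, at an unadjusted limma value under 0.05 (-0.33, 0.024). The mean of Muc2 over the 8 livers, 1.48, was under that median level. Their list mean was 3.07 in Ctrl PN replicate 3, the liver lowest in Cyp7a1, and 2.51 to 2.65 in the other 7 livers. Cela1 (2.97), Ins2 (2.22), Cpa1 (1.97), Muc2 (1.90) and Fabp2 (9.05) were also highest there, while Gcg was highest in Ctrl PN replicate 1 (2.0). Vil1 stood at 1.62 in both of these livers. The mean of Ins2 over the 8 livers, 1.49, was also under that median level, and that of Cpa1, 1.60, lay near it. Fabp2 was high in every liver, at 8.12 to 9.05. Every value of every member was above that median, the lowest being 2.73. Of the macrophage markers 7 of 8 were lower in mean in HFD PN (list means 4.41 to 5.15 against 4.81 to 5.00), as were 7 of 8 endothelial markers (4.19 to 4.65 against 4.38 to 4.83). Of the 8 stellate cell markers 5 were lower in mean in HFD PN and 3 higher. By limma 1 of them, Reln, was lower (-0.83, unadjusted p = 0.000945, adjusted p = 0.99988). The stellate list means, which include Reln, were 3.99 to 4.32 against 4.28 to 4.55. The part of cell makeup and of carry-over in the members' differences was not tested.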

How the data were processed

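Liver RNA of 4 HFD PN and 4 Ctrl PN offspring was hybridised to 1 Affymetrix Mouse Gene ST array each. The authors deposited log2 values, made from probe signals with RMA (oligo, R 3.4.3, as given in the submitters' notes and the methods), which corrects background, equalises probe distributions between arrays and summarises each transcript cluster. The upper quartile of the gene values still ran from 2.64 (HFD PN replicate 1) to 3.31 (HFD PN replicate 4). Probe files were not used here, and the sources used here do not give the probe annotation release. Of 41345 clusters, 23521 named 1 gene, 1820 several and 16004 none in the annotation used here; 22180 genes resulted, the cluster of highest mean serving for 1082 genes with several.

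Groups came from the sample titles. All genes were fitted together with limma 3.58.1 (lmFit and eBayes in R 4.3.3, group as the sole term, 8.82 total degrees of freedom for the intervals) with Benjamini-Hochberg adjustment, at an unadjusted p of 0.01, the exploratory threshold of the paper for the arrays. The difference of each member but Cyp7a1 was tested by exact two-sided permutation as well, and relations by permuting all 40320 pairings on the size of r (SciPy 1.17.1). The fit was tested on simulated arrays. Genes named were the members, the 3 of lowest p in each pathway list and the 5 most and 5 least like Cyp7a1, leaving out unnamed models and small RNAs; others are marked in the text. The members and lists were chosen with earlier results of these data known. Alternatives were the mean of all clusters, median centring, quantile normalization, a filter on dim genes, trended and robust variance, array weights, a replicate block, the methods' t-tests, group means taken off, and leaving out each liver or both arrays that stood apart. Arrays have no read depth, and their number limits the precision.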

Additional observations from a re-analysis of the deposited data

Results flagged for a closer look

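In 3 of the 20 sets of 4 livers formed by the 10 members and 2 groups, 1 liver lay apart from the other 3. The measure was Dixon's ratio at its 95% critical value for 4 samples, which by chance marks about 1 in 20 independent sets. These sets share arrays and are not independent, and the share of such sets over all genes was not computed. The count is therefore not shown to be particular to the members. Cyp8b1 in Ctrl PN replicate 3 was 6.34, and the remaining Ctrl PN livers lay at 7.12 to 7.23 (ratio 0.87). Cyp27a1 in HFD PN replicate 1 was 6.39, and the remaining HFD PN livers lay at 7.90 to 7.99 (ratio 0.94). Hsd3b7 in HFD PN replicate 1 was 5.28, with the rest at 6.15 to 6.31 (ratio 0.85). All 3 values are low ones and belong to the arrays that stood apart from the rest over all genes, whose part in them was not tested.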

How the results depend on the processing

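Of the 9 members tested, the count past an unadjusted p of 0.01 was 0 under every alternative run, leave-one-out fits included. Cyp7a1 is not in this count, as it was tested under none of them. Over all genes the count moved from 123 to 41 with dim genes left out, 426 with array weights and 73 with the replicate block. It was 195 with the methods' t-test, 496 without both arrays that stood apart and 50 to 492 with 1 liver left out. Same-numbered livers had no steady likeness in their deviations from the group means (r -0.303, 0.291, -0.407 and 0.161). These values cannot tell whether such livers shared a litter or batch, and the replicate block changed no call of a tested member. Cyp27a1 and Hsd3b7 turned to 0.13 and 0.15 with array weights and to 0.13 and 0.17 without both arrays. With 1 liver left out, differences ranged from -0.28 to 0.25 for Cyp27a1, -0.15 to 0.19 for Hsd3b7, -0.12 to 0.03 for Nr1h4, -0.01 to 0.47 for Nr5a2 and -0.07 to 0.62 for Klb, and from -1.34 to -0.55 for Cyp7a1, -0.56 to -0.16 for Cyp8b1, -0.47 to -0.05 for Cyp7b1, 0.14 to 0.92 for Nr0b2 and 0.02 to 0.35 for Fgfr4, which kept their sign. At 0.05 the count among the same 9 members, again without Cyp7a1, was 1 without both arrays or with either of them left out alone. It was 0 under the other alternatives.

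The r of Cyp7a1 turned to -0.10 with Nr1h4 and -0.30 with Fgfr4 after quantile normalization, and to 0.11 with Nr0b2 with group means taken off. Without both arrays it was -0.47 with Cyp27a1, -0.27 with Hsd3b7, -0.11 with Nr1h4, -0.64 with Nr5a2, -0.66 with Fgfr4 and -0.56 with Klb. With 1 liver left out it ranged from -0.32 to 0.32 with Nr0b2 and -0.15 to 0.27 with Fgfr4, and kept its sign for the other 7, though not its size: it ranged from 0.06 to 0.74 with Nr1h4, 0.02 to 0.45 with Hsd3b7, 0.03 to 0.55 with Nr5a2, 0.10 to 0.56 with Klb, 0.25 to 0.59 with Cyp27a1, 0.63 to 0.82 with Cyp7b1 and 0.73 to 0.88 with Cyp8b1. RMA compresses differences of dim genes, and with 4 livers a group the intervals of Cyp8b1, Nr0b2 and Klb leave room for differences of 0.96, 1.58 and 1.28 in size. The causes of the changes of sign were not tested.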
